A study of Mus musculus with 6 samples.

Results

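The genes described here are the interleukins, the colony-stimulating factors (CSFs) and their receptors. They were taken by symbol, as every gene of the deposited table whose symbol begins with Il and a digit or with Csf1, Csf2 or Csf3, except Il4 itself. That rule found 46 of 9295 genes, made up of 16 ligands, 27 receptor chains (decoy and accessory chains included) and 3 genes that are neither. Il1b, Csf1r, Csf2ra, Il4ra and Il10ra were not among the 46, so rankings and systems below cover only the genes found. RNA was measured in bone marrow of mice with acute myeloid leukemia, in a design that asked what loss of Papola, the gene of poly(A) polymerase alpha, does in that leukemia. Of the 6 libraries, 3 are labelled KO (genotype PAPOLA KO) and 3 are labelled Con (genotype PAPOLA flox/flox, an intact gene between recombination sites). All 6 are labelled leukemia. The labels give no Cre line, leukemia-driving gene, strain, age or cell sort, and do not say whether libraries sharing a label are different mice, so p-values may measure technical spread alone.

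Interleukins and CSFs are secreted proteins by which blood cells steer each other's growth, maturation and activation. Most bind pairs of receptor chains that signal through JAK kinases and STAT transcription factors, and the interleukin-1 family acts through receptors that recruit the adaptor MyD88. In marrow, G-CSF (Csf3) drives neutrophil production, M-CSF (Csf1) supports monocytes and macrophages, GM-CSF (Csf2) supports both lines, and leukemic myeloid cells often carry receptors for them.

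Papola, the targeted gene, had counts of 2928, 2929 and 2440 in the libraries labelled KO, against 3751, 3779 and 3642 in those labelled Con. After TMM scaling (trimmed mean of M-values) these were 342, 361 and 314 CPM under the KO label, against 284, 297 and 291 CPM under the Con label. Thus Papola was not lower under the KO label. Its log2 fold change was 0.22 (adjusted p = 0.0291, SE 0.08), but -0.13 (adjusted p = 0.187) when only library size was scaled for, and leaving out any 1 library except KO replicate 3 ended the call (adjusted p of 0.0614 to 0.0814). Gene totals do not show the deleted exons, so all directions rest on the labels. Totals were 8875021 to 9768131 counts per library labelled KO and 11253928 to 11436212 per library labelled Con. Con replicates 2 and 3 stood closer to each other than any other pair (chi-square per degree of freedom 1.68, against 17.7 to 23.7 in the other pairs within a group), and were kept as 2 samples. A value of 1.68 is not far above counting error alone, so the spread under the Con label may rest on fewer than 3 independent samples. An adjusted p under 0.05 was reached by 82.0% of 8358 tested genes, 39.6% being higher and 42.4% lower in libraries labelled KO. With library size only, the median log2 fold change of all genes moved by -0.36 and the share of higher genes among those called was 35.7% in place of 48.3%. In these bulk samples, fewer cells of a type and less RNA per cell cannot be told apart.

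Among the 46 genes, 44 passed the filter on low counts and 41 of those passed the adjusted p of 0.05 (93.2%), beside 82.0% of all genes tested. Of the 16 ligands, 4 rose, 9 fell, 2 did not pass the test and 1 was not tested, and of the 27 receptors 11 rose, 14 fell, 1 did not pass and 1 was not tested. Scaled by library size only, 3 ligands rose and 10 fell, and 9 receptors rose and 14 fell. The median log2 fold change was -2.73 over the 15 tested ligands and -0.49 over the 26 tested receptors, against -0.06 over all genes tested. These counts include 7 genes that reached the filter's level in the Con group only (Il1f6, Csf3, Il13, Csf2, Il12b, Il10 and Il4i1) and 3 that reached it in the KO group only (Il31ra, Il13ra2 and Il17rb), for which a difference was built in. Over the 9 ligands at that level in every library, a restriction chosen after seeing the data, the median was 0.41, with 4 higher, 4 lower and 1 not called, so the negative ligand median rests on genes that only the Con group brought past the filter. Over the 23 such receptors it was -1.09, with 8 higher, 14 lower and 1 not called. Over all 7313 such genes it was -0.05, with 2841 higher, 3038 lower and 1434 not called. KO and Con values did not overlap in 43 of the 44 tested members, beside 84.5% of all genes tested.

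Promoter sequence is shown for the genes of 4 members with large changes. They are the ligands Il1a and Il6 (lower in libraries labelled KO), the ligand Il18 and the receptor Csf3r (both higher). These 4 do not stand for all members that moved in their direction. The windows run from 250 bases before to 50 bases after the gene start in RefSeq, build GRCm38.p6, read 5′ to 3′ on the gene's own strand. Capitals mark matches, on either strand, to an NF-kB consensus, to a loose C/EBP pattern (TTNNGNAA) or to an AP-1 pattern (TGANTCA), and none of these matches overlap in the windows printed.
Il6 (chr5:30012864-30013163, plus strand): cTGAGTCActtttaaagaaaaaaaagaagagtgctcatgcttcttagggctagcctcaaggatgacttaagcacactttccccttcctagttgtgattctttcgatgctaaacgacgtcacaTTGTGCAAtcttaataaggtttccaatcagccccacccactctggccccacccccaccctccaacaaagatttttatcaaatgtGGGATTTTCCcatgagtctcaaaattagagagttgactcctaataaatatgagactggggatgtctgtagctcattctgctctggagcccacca
Il1a (chr2:129309923-129310222, minus strand): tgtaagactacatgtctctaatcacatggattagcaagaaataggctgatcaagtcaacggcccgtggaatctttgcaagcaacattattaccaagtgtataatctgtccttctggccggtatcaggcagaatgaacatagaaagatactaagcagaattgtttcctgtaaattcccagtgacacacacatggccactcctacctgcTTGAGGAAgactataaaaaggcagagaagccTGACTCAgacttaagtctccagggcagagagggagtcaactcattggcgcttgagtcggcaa
Il18 (chr9:50554450-50554749, plus strand): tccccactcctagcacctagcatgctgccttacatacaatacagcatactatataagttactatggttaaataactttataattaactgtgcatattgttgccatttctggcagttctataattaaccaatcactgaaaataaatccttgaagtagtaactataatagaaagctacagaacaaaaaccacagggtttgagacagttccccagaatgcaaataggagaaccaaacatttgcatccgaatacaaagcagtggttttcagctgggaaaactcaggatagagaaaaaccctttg
Csf3r (chr4:126024409-126024708, plus strand): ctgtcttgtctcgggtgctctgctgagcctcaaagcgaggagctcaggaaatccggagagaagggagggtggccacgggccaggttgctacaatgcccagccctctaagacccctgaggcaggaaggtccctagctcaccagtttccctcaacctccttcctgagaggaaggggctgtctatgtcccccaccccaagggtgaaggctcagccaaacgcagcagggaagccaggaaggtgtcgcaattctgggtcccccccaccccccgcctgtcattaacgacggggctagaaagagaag

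The Il6 window held an NF-kB match beginning 44 bases before the start, a C/EBP match at 128 bases and an AP-1 match at 249 bases before it. The Il1a window held a C/EBP match at 43 bases and an AP-1 match at 12 bases before the start, and no NF-kB match. No match to these patterns or to a PU.1 pattern (GAGGAAGT) lies in the Il18 and Csf3r windows, which says only that the letters are not there. Other members did not share this split. Il12a and Il2rg fell and held no match, while Il16 and Il13ra2 rose and held matches. The window of Il13, which fell more than Il6 but is not printed, held C/EBP matches only. RefSeq windows were matched for 34 of the 46 genes (44 windows, some of them alternative starts of 1 gene). The NF-kB consensus occurred in 5 of the 26 windows of members that fell and in 1 of the 16 of members that rose, and 4.51% of all 32851 promoter windows hold it. C/EBP matches were in 15 of 26 and 7 of 16 (40.7% of all windows), AP-1 matches in 3 of 26 and 3 of 16 (7.81%), and PU.1 matches in 2 of 26 and 1 of 16 (3.20%).

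Of the 9 ligands that fell, Il1a, Csf3, Il6, Il13 and Csf1 are given first, by library. Levels are given as CPM (with ± as the SD over the 3 libraries of a group), the counts scaled to a common library size with TMM factors, libraries 1, 2 and 3 in turn. Il1a, which encodes interleukin-1 alpha, an alarm cytokine released by damaged and activated cells, had 12.4, 12.8 and 9.27 CPM in the libraries labelled KO, against 910.2, 1079.9 and 1046 CPM in those labelled Con. No library labelled KO reached a 70th part of any labelled Con, and the log2 fold change was -6.46 (adjusted p = 2.39e-09, SE 0.15), or 87.8-fold lower. Csf3 had 0.117, 0.617 and 1.03 CPM under the KO label, against 74.5, 57.7 and 63.7 CPM under the Con label. Its level in libraries labelled KO rests on 1, 5 and 8 counts, and the log2 fold change was -6.80 (adjusted p = 4.51e-08, SE 0.29), or -7.46 without KO replicate 3.

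Il6, an inducer of the acute phase response that also acts on blood progenitors, had 1.75, 2.71 and 9.27 CPM in the libraries labelled KO, against 175, 124 and 124 CPM in those labelled Con. The 3 libraries labelled KO spread widely, with replicate 3 highest, but stayed below every library labelled Con. The log2 fold change was -4.97 (adjusted p = 4.23e-06, SE 0.41), and it was -5.98 without KO replicate 3. Il13, a cytokine of type 2 immunity made by T helper cells, innate lymphoid cells, basophils and mast cells, had 0.117, 0.123 and 0.515 CPM under the KO label, against 23.7, 14.7 and 13.995 CPM under the Con label. Con replicate 1 stood above the other two, and the log2 fold change was -6.08 (adjusted p = 1.20e-06, SE 0.44), or -7.06 without KO replicate 3.

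Csf1 had 41.2, 37.9 and 41.6 CPM in the libraries labelled KO, against 265, 267 and 268 CPM in those labelled Con. Both groups were tight and wide apart, and the log2 fold change was -2.73 (adjusted p = 6.58e-09, SE 0.08), a 6.63-fold lower level. Csf2 had 0, 0 and 3 counts in the libraries labelled KO, against 53, 34 and 32 counts in those labelled Con. With 3 counts over the KO group against 119 over the Con group, its level was 25.2-fold lower (95% counting interval 8.42 to 124), and without KO replicate 3 no count remained. Il1f6, the older symbol of interleukin-36 alpha, an epithelial and myeloid relative of interleukin-1, had 0 counts in each library labelled KO, against 48, 59 and 54 counts in those labelled Con. It was at least 34.1-fold lower against a floor of 3 counts over the KO group.

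The genes of the interleukin-12 family, made by dendritic cells and macrophages to steer T and NK cells, were low in both groups and did not share a direction. Il12a, the p35 subunit of interleukin-12, averaged 9.91 ± 2.87 CPM in libraries labelled KO and 25.9 ± 4.35 CPM in libraries labelled Con (SD, n = 3 each), with a log2 fold change of -1.39 (adjusted p = 1.81e-04, SE 0.21). Il12b, the p40 subunit shared by interleukins 12 and 23, had 3 counts over the KO group and 40 over the Con group, 8.48-fold lower (counting interval 2.70 to 42.8), and 2 of the 3 counts were in KO replicate 2. Il23a, the p19 subunit of interleukin-23, was not tested, with 1, 2 and 1 counts in the libraries labelled KO, against 7, 8 and 15 counts in those labelled Con. Il27, the p28 subunit of interleukin-27, went the other way, with 4.38 ± 1.22 against 2.50 ± 0.141 CPM (KO against Con), with a log2 fold change of 0.81 (adjusted p = 0.0143, SE 0.26). That call was lost with library size only (0.46, adjusted p = 0.125) and without KO replicate 1 (0.57, adjusted p = 0.0695).

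The ligands that rose were those of interleukins 18, 16 and 15, beside Il27. Il18, an interleukin-1 family cytokine that is made as a precursor, cut by caspase-1 and known for inducing interferon gamma, had 27.7, 41.9 and 34.9 CPM in the libraries labelled KO, against 5.61, 6.29 and 6.64 CPM in those labelled Con. Every library labelled KO lay above every library labelled Con, with a log2 fold change of 2.49 (adjusted p = 9.28e-07, SE 0.18). Il16, which encodes a precursor whose released end attracts CD4-bearing cells, had 267, 210.1 and 203 CPM under the KO label, against 62.2, 64.2 and 64.1 CPM under the Con label. It rose 3.57-fold, a log2 fold change of 1.84 (adjusted p = 4.06e-07, SE 0.11). Il15, a survival factor of NK cells and memory T cells, had 31.6, 28.5 and 35.9 CPM under the KO label, against 10.6, 11.1 and 14.1 CPM under the Con label. Its groups did not overlap either, and the log2 fold change was 1.42 (adjusted p = 1.32e-05, SE 0.15).

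Neither Il1f9 nor Il10 passed the test. Il1f9, the older symbol of interleukin-36 gamma, had 258, 176 and 184 CPM in the libraries labelled KO, against 120.1, 170.1 and 174 CPM in those labelled Con. KO replicate 1 was the highest library and Con replicate 1 the lowest, and the other 4 lay close together. The log2 fold change of 0.41 (adjusted p = 0.0584, SE 0.18) passed the threshold under 6 of 15 alternatives. Il10, an inhibitor of macrophage activation, had 2, 17 and 18 counts in the libraries labelled KO, against 50, 31 and 37 counts in those labelled Con. Its log2 fold change was -1.001 (adjusted p = 0.0994, SE 0.52), and -1.36 (adjusted p = 0.0322) with library size only.

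**Figure D1:**
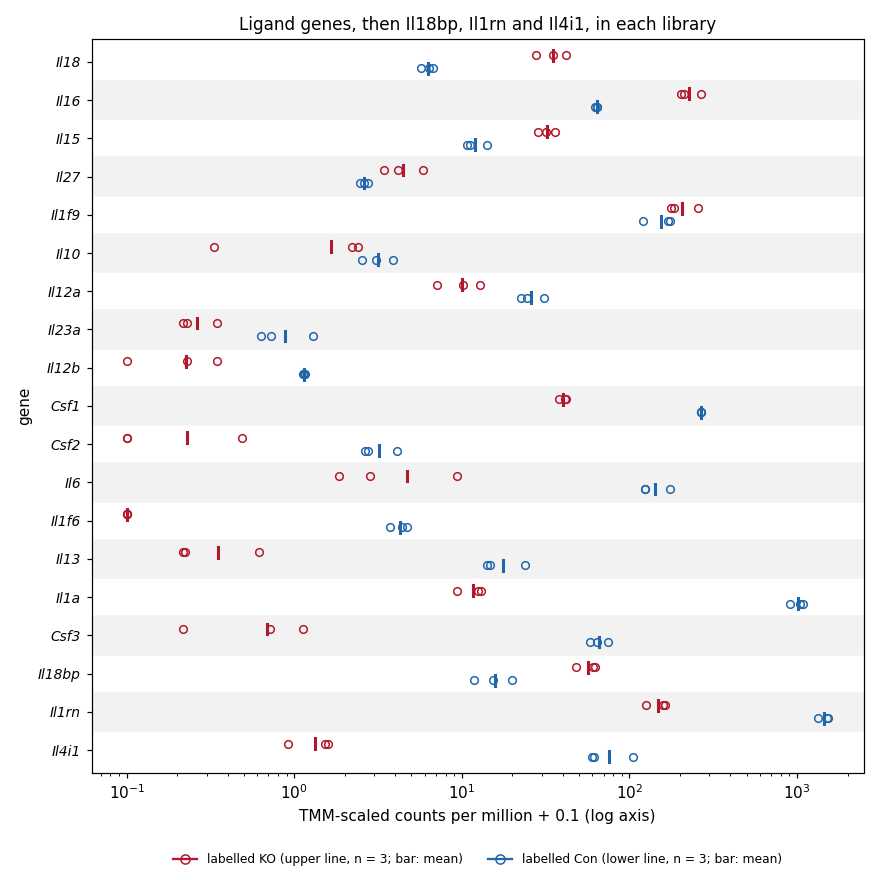
Level of each ligand gene, and below them of Il18bp, Il1rn and Il4i1, in each library (points, log axis, CPM + 0.1), with the group mean as a bar. The points labelled KO lie left of those labelled Con for Il1a, Csf3, Il13, Il6, Csf1, Il1rn and Il4i1, and right of them for Il18, Il16, Il15 and Il18bp.

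The antagonists of 2 interleukin-1 family cytokines moved apart, each in the direction of the agonist listed above. Il1rn, the receptor antagonist that occupies the interleukin-1 receptor without a signal, had 159.5, 125 and 162 CPM in the libraries labelled KO, against 1327, 1538 and 1507 CPM in those labelled Con. It fell 9.79-fold, with a log2 fold change of -3.29 (adjusted p = 2.56e-08, SE 0.13). Il18bp, a secreted protein that captures interleukin-18, had 61.8, 48.1 and 60.1 CPM under the KO label, against 19.9, 11.8 and 15.2 CPM under the Con label. Its log2 fold change was 1.86 (adjusted p = 1.14e-05, SE 0.18), but its counts were not whole in any library, so its value is less certain. Il4i1, named for its induction by interleukin 4, is no cytokine but an L-amino acid oxidase of activated myeloid cells. It had 0.818, 1.48 and 1.42 CPM under the KO label, against 106, 59.8 and 60.9 CPM under the Con label, and fell with a log2 fold change of -5.93 (adjusted p = 5.61e-07, SE 0.35). Con replicate 1 was the highest of the Con libraries, and the counts of the gene were not whole under the Con label, so its value is less certain.

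Levels of different genes were set side by side only after dividing the mean CPM by the length in kilobases of the principal transcript in GENCODE M21 (mean ± SD, n = 3). Among the 16 ligands found, Il1f9 was highest in libraries labelled KO, at 125 ± 27.3 CPM per kilobase. It was ahead of Il16 at 43.1 ± 6.67 and Il18 at 40.5 ± 8.28, whose levels did not differ beyond their spread. In libraries labelled Con, Il1a was highest at 513 ± 45.5 CPM per kilobase, ahead of Il6 at 124 ± 25.5 and Il1f9 at 93.9 ± 18.2, the last pair being within about 1 SD of each other. In CPM per kilobase, the antagonist Il1rn stood at 60.2 ± 8.34 in libraries labelled KO and 589 ± 46.04 in libraries labelled Con, and Il1a at 5.82 ± 0.984 in libraries labelled KO and 513 ± 45.5 in libraries labelled Con. Summed over all 16, ligands took 527 to 653 CPM in libraries labelled KO and 1693 to 1832 CPM in those labelled Con. Il1a alone was 9.27 to 12.8 CPM of the KO sums and 910 to 1080 CPM of the Con sums.

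Markers of other cell types also differed between the groups. Of 12 macrophage marker genes, 11 were in the table, and 4 rose and 7 fell. Their summed level was 980 to 1767 CPM in libraries labelled KO and 19112.5 to 28788 CPM in those labelled Con. Gpnmb and Mmp12 made up most of the Con level, at 8.26 ± 1.49 against 14058 ± 3451 CPM and 1.49 ± 0.791 against 8292 ± 1580.4 CPM (KO against Con), while the complement genes C1qa, C1qb and C1qc and the receptor kinase Mertk rose, C1qa at 210.4 ± 65.1 against 1.25 ± 0.0344 CPM, and none of the 11 was at 0. All 6 basophil and mast cell genes in the table, of 8 listed, fell (419 to 660 CPM against 1773 to 2302 CPM, KO against Con). The part of these cells in the ligand levels was not tested.

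Per kilobase of transcript, the receptor genes with the highest level in libraries labelled KO were that of G-CSF and a decoy receptor of interleukin-1. Both were far lower in libraries labelled Con. Csf3r had 1734, 1062 and 1683 CPM in the libraries labelled KO, against 87.6, 73.9 and 75.9 CPM in those labelled Con. Replicate 2 was the lowest of the libraries labelled KO and still lay over 10 times above any labelled Con, and the log2 fold change was 4.24 (adjusted p = 1.19e-07, SE 0.20). Il1r2, which binds interleukin-1 without signalling, had 339, 351 and 591 CPM under the KO label, against 30.9, 24.4 and 23.2 CPM under the Con label. Replicate 3 was the highest KO library, and the log2 fold change was 4.03 (adjusted p = 6.15e-07, SE 0.24).

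Il17ra, the shared receptor chain of the interleukin-17 family, had 458, 351 and 531 CPM in the libraries labelled KO, against 84.3, 70.6 and 68.4 CPM in those labelled Con, and its log2 fold change was 2.58 (adjusted p = 5.13e-07, SE 0.16). Il6ra, the chain that binds interleukin-6, had 61.5, 47.2 and 89.95 CPM under the KO label, against 8.94, 10.6 and 11.4 CPM under the Con label, and its log2 fold change was 2.68 (adjusted p = 6.21e-06, SE 0.23). In both genes the groups were clearly apart while libraries labelled KO spread more. Il18rap, the accessory chain of the interleukin-18 receptor, had 279.5, 182 and 214 CPM under the KO label, against 87.6, 78.7 and 80.1 CPM under the Con label, a log2 fold change of 1.46 (adjusted p = 1.21e-05, SE 0.15). Its partner Il18r1, the binding chain, averaged 27.1 ± 0.827 against 6.87 ± 0.212 CPM (KO against Con) and had a log2 fold change of 1.98 (adjusted p = 3.69e-07, SE 0.12).

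Late neutrophils carry several of these receptors, and their markers rose in the same libraries. All 12 late neutrophil marker genes rose, with a summed level of 168061 to 193077 CPM in libraries labelled KO and 2363 to 2539 CPM in libraries labelled Con, and none was at 0 in either group. The part of neutrophil number in the receptor levels was not tested.

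Il17rb, Il13ra2, Il2rb and Il31ra also rose. Il17rb, which with Il17ra forms the receptor of interleukin-25, had 2.69, 1.85 and 3.73 CPM in the libraries labelled KO, against 0.227, 0.157 and 0.320 CPM in those labelled Con. Its Con level rests on 2 to 4 counts per library, and the log2 fold change was 3.49 (adjusted p = 4.83e-05, SE 0.44). Il13ra2, a decoy for interleukin-13, averaged 6.96 ± 1.16 against 0.996 ± 0.637 CPM (KO against Con), with a log2 fold change of 2.80 (adjusted p = 9.29e-05, SE 0.39), or 3.39 without Con replicate 2. Il2rb, the signalling chain shared by the receptors of interleukins 2 and 15, averaged 31.2 ± 7.89 against 7.32 ± 4.24 CPM (KO against Con). The log2 fold change was 2.08 (adjusted p = 4.63e-04, SE 0.35), and it was 2.68 without Con replicate 1, the highest of the Con libraries. Il31ra, which binds interleukin-31, was at 2.92 ± 0.845 against 1.16 ± 0.643 CPM (KO against Con), with a log2 fold change of 1.31 (adjusted p = 0.0162, SE 0.42). That call was lost with library size only (0.95, adjusted p = 0.0566) and without KO replicate 3 (1.06, adjusted p = 0.0647). Il22ra2, a soluble decoy for interleukin-22, was not tested and had 19, 7 and 11 counts in the libraries labelled KO, against 3, 0 and 1 counts in those labelled Con.

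Receptor chains of GM-CSF and of interleukins 33, 36 and 7 were among those that fell. Csf2rb encodes the signalling chain shared by the receptors of GM-CSF, interleukin-3 and interleukin-5, and had 351, 230.4 and 256 CPM in the libraries labelled KO, against 2063, 2281 and 2248 CPM in those labelled Con. It was lower, at a log2 fold change of -2.98 (adjusted p = 1.67e-07, SE 0.16). Csf2rb2, its mouse copy used by interleukin-3 alone, had 93.6, 56.01 and 69.7 CPM under the KO label, against 974, 992 and 987 CPM under the Con label, a log2 fold change of -3.75 (adjusted p = 9.58e-08, SE 0.17). They are close copies of each other and their counts are not whole, so each value alone is uncertain. Summed, they had 445, 286 and 326 CPM in libraries labelled KO, against 3036, 3273 and 3235 CPM in those labelled Con, 9.03-fold lower by the means. Il3ra, the chain that binds interleukin-3 with them, had 35.8, 41.6 and 37.7 CPM under the KO label, against 29.8, 33.5 and 34.8 CPM under the Con label. It was not called, with a log2 fold change of 0.23 (adjusted p = 0.0641, SE 0.10), and with library size only it was -0.12.

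Il1rl1, also called ST2, is the receptor of the alarm cytokine interleukin-33 and marks mast cells, basophils and type 2 lymphoid cells. It had 17.1, 9.13 and 13.4 CPM in the libraries labelled KO, against 311, 218 and 222 CPM in those labelled Con. Con replicate 1 was the highest library, and the log2 fold change was -4.24 (adjusted p = 3.39e-07, SE 0.23). Il7r, the interleukin-7 receptor of lymphocytes and their precursors, had 15.5, 21.7 and 25.4 CPM under the KO label, against 231, 367 and 355 CPM under the Con label. Here Con replicate 1 was the lowest of its group, and the log2 fold change was -3.93 (adjusted p = 5.18e-07, SE 0.23). Il1rl2, the receptor of interleukin-36, had 12.2, 10.2 and 7.85 CPM under the KO label, against 134, 168 and 159.9 CPM under the Con label, with a log2 fold change of -3.93 (adjusted p = 3.09e-08, SE 0.16). Il1r1, the signalling receptor of interleukin-1, had 12.9, 11.7 and 11.8 CPM under the KO label, against 65.4, 69.8 and 65.6 CPM under the Con label, both groups tight, with a log2 fold change of -2.46 (adjusted p = 2.67e-08, SE 0.10). The basophil and mast cell markers also fell, and the macrophage markers were split as given above, with 4 that rose and 7 that fell. The part of those cells in these receptor levels was not tested.

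Il2rg, the common gamma chain of the receptors of interleukins 2, 7, 15 and others, had 72.8, 84.3 and 91.1 CPM in the libraries labelled KO, against 403, 469 and 448 CPM in those labelled Con. Its log2 fold change was -2.41 (adjusted p = 5.73e-08, SE 0.11). Il2ra, the chain that gives the interleukin-2 receptor high affinity, had 1.17, 3.70 and 3.09 CPM under the KO label, against 44.8, 25.8 and 24.1 CPM under the Con label, and fell, with a log2 fold change of -3.58 (adjusted p = 2.22e-05, SE 0.38). So of the chains used with the common gamma chain that were among the members, Il2ra and Il7r fell and Il2rb rose. Il20rb, a chain of the receptors for interleukins 19, 20 and 24, had 9.23, 4.81 and 9.52 CPM under the KO label, against 31.3, 35.6 and 34.7 CPM under the Con label, with a log2 fold change of -2.11 (adjusted p = 9.84e-06, SE 0.21).

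Of 11 T and NK cell marker genes 9 were in the table, of which 7 rose and 2 fell. Their summed level was 86.2 to 122 CPM in libraries labelled KO and 366 to 513 CPM in those labelled Con. The granule protease Gzmb and the costimulatory receptor Cd28 were the 2 that fell, at 7.10 ± 0.768 against 303 ± 96.7 CPM and 5.52 ± 2.50 against 113 ± 13.9 CPM (KO against Con). Cd3d, Cd3e and Cd3g, parts of the T cell receptor complex, averaged 9.85 ± 0.274 against 0.263 ± 0.327 CPM, 2.98 ± 1.12 against 0.0267 ± 0.0462 CPM and 5.94 ± 2.14 against 0.181 ± 0.0397 CPM (KO against Con), and Ncr1, an NK cell receptor, averaged 4.19 ± 0.754 against 0 ± 0 CPM. The part of these cells in the levels of Il2ra, Il7r, Il2rg and Il2rb was not tested.

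The receptor chains Il12rb1, Il12rb2 and Il27ra fell. Il12rb1, shared by the receptors of interleukins 12 and 23, averaged 3.41 ± 1.23 CPM in libraries labelled KO and 25.5 ± 0.678 CPM in libraries labelled Con (SD, n = 3 each), a log2 fold change of -2.89 (adjusted p = 1.15e-06, SE 0.21). Its partner Il12rb2 averaged 12.6 ± 3.78 against 26.6 ± 1.09 CPM (KO against Con), with a log2 fold change of -1.09 (adjusted p = 4.23e-04, SE 0.19). The counts of Il12rb2 were not whole in any library, so its value is less certain. Il27ra averaged 5.31 ± 1.05 against 20.3 ± 5.06 CPM (KO against Con), with a log2 fold change of -1.94 (adjusted p = 2.92e-05, SE 0.23). The Il27 ligand gene rose, as given above, while Il27ra, a chain of its receptor, fell, and Il6st, the gp130 chain that completes that receptor, is given next.

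The accessory chain Il1rap, the gp130 chain Il6st and Il11ra1 had small differences, between -0.52 and 0.32 in log2 fold change. Il1rap, the accessory chain of the receptors of interleukins 1, 33 and 36, had 39.4, 28.1 and 36.8 CPM in the libraries labelled KO, against 46.7, 49.4 and 54.1 CPM in those labelled Con, and fell, with a log2 fold change of -0.52 (adjusted p = 0.00388, SE 0.13). Il11ra1, the receptor of interleukin-11, had 25.1, 26.8 and 26.6 CPM under the KO label, against 31.7, 37.7 and 38.3 CPM under the Con label. Its log2 fold change was -0.46 (adjusted p = 0.00316, SE 0.11), but its counts were not whole and mouse has near-identical copies of it, so the value is uncertain. Il6st, the gp130 chain through which interleukins 6, 11 and others signal, had 84.8, 62.3 and 89.95 CPM under the KO label, against 60.3, 61.8 and 68.1 CPM under the Con label. It was the only tested member in which the groups overlapped. Its log2 fold change of 0.32 (adjusted p = 0.0482, SE 0.13) turned to -0.04 with library size only, and the call was lost under 9 of 15 alternatives in all, among them each of leaving out KO replicate 1 or 3 or Con replicate 1 or 2 (0.21 to 0.31).

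**Figure D2:**
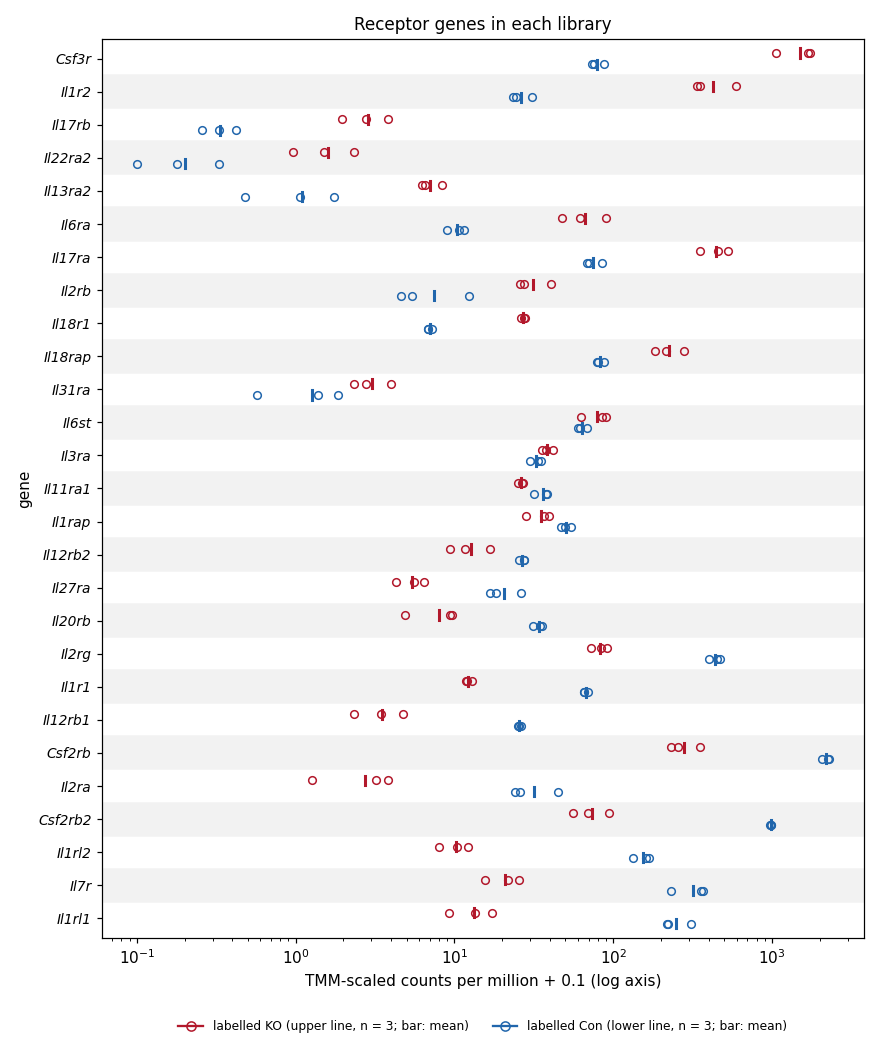
Level of each receptor gene in each library (points, log axis, CPM + 0.1), with the group mean as a bar, sorted by the ratio of these means. By these plotted means, Csf3r and Il1r2 are over 10-fold higher in libraries labelled KO, and Il1rl1, Il7r, Il1rl2, Csf2rb2 and Il2ra over 10-fold lower. The points of Il6st overlap between the labels.

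Per kilobase of transcript, Csf3r (429 ± 107 CPM per kilobase) and Il1r2 (301 ± 100.2) led the receptors in libraries labelled KO and did not differ beyond their spread. Il17ra at 57.6 ± 11.7 and Csf2rb at 56.999 ± 13.01 followed, likewise within their spread. In libraries labelled Con, Csf2rb led at 448 ± 23.98 CPM per kilobase, ahead of Il2rg at 263 ± 20.2 and Csf2rb2 at 208 ± 1.98. Receptors summed to 2668 to 3897 CPM in libraries labelled KO and to 4823 to 5149.9 CPM in those labelled Con, of which Csf2rb alone was 2063 to 2281 CPM.

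**Figure D3:**
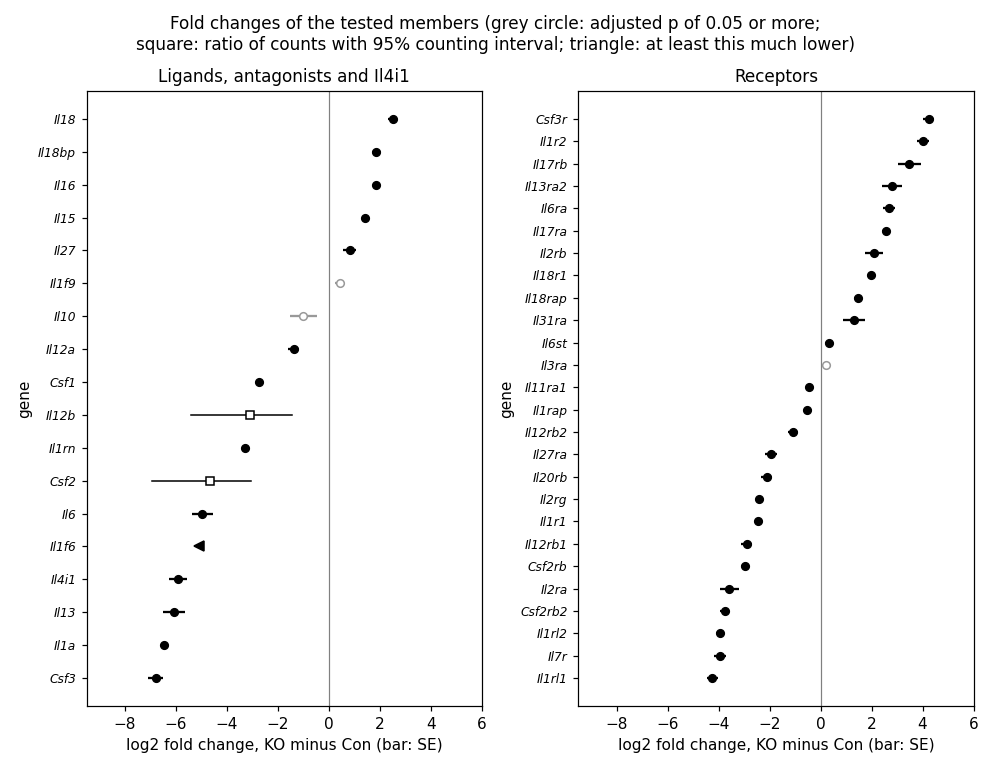
Log2 fold change, KO minus Con, of the 44 tested members with its SE (circles), for ligands, antagonists and Il4i1 on the left and receptors on the right, each sorted by value. Il10, Il1f9 and Il3ra (grey) did not pass the test, Csf2 and Il12b are ratios of counts with counting intervals, and Il1f6 is a bound against a floor of 3 counts.

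Ligand and receptor genes of 1 system were set side by side. In the interleukin-18 system all 4 genes rose, the ligand Il18 (2.49), the receptor chains Il18r1 (1.98) and Il18rap (1.46), and the captor Il18bp (1.86). Among all genes tested, 39.6% rose. In the interleukin-1 system the agonist Il1a (-6.46), the antagonist Il1rn (-3.29) and the signalling receptor Il1r1 (-2.46) fell and the decoy Il1r2 (4.03) rose. Il1b was not among the members. In CPM per kilobase, the decoy gene Il1r2 stood at 301 ± 100.2 in libraries labelled KO and 18.4 ± 2.93 in libraries labelled Con, and the signalling gene Il1r1 at 2.09 ± 0.107 in libraries labelled KO and 11.5 ± 0.428 in libraries labelled Con. The ligand and the receptor went opposite ways for G-CSF, with Csf3 at -6.80 and Csf3r at 4.24, and for interleukin-6, with Il6 at -4.97 and Il6ra at 2.68. For GM-CSF both Csf2 and Csf2rb fell, and Csf2ra was not among the members. For interleukin-13 the ligand Il13 fell and the decoy Il13ra2 rose. Csf3, Csf2 and Il13 reached the filter's level in the Con group only, and Il13ra2 in the KO group only. For these genes a difference was built in, so their directions are no separate support for the pairings given here.

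6 receptor genes of the interleukin-1 family follow each other on chromosome 1 in the RefSeq table (GRCm38.p6), with no other coding gene between them. Along that order Il1r2 rose, Il1r1, Il1rl2 and Il1rl1 fell, and Il18r1 and Il18rap rose. The cluster held 3 neighbours that fell between genes that rose. Of all genes tested, 39.6% were higher and 42.4% lower. On chromosome 2, Il1f9 and Il1f6 are direct neighbours, the first not called and the second without a count in libraries labelled KO, and Il1rn, which fell, lies 2 coding genes further. On chromosome 15 the neighbours Csf2rb2 and Csf2rb both fell and Il2rb, 5 coding genes further, rose, and on chromosome 13 Il6st and Il31ra are neighbours, with log2 fold changes of 0.32 and 1.31.

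**Figure D4:**
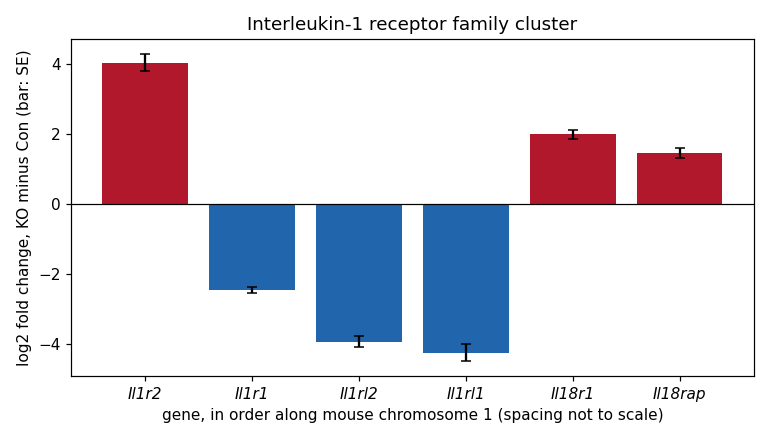
Log2 fold change, KO minus Con (bars, with SE), of the 6 interleukin-1 receptor family genes in their order along chromosome 1. The decoy Il1r2 and the interleukin-18 receptor genes are above 0, between 1.46 and 4.03, and the 3 genes between them are below it, from -2.46 to -4.24.

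Other genes of cytokine signalling were taken from 5 lists of 84 genes, of which 46 were in the table and 45 were tested. Of these 19 rose, 17 fell and 9 did not pass, with a median log2 fold change of 0.07, against -0.06 over all genes tested. With library size only, 16 rose and 22 fell. The shares called are near those of all genes, 39.6% higher and 42.4% lower.

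Among 10 tested SOCS genes and other inhibitors of cytokine receptor signalling 3 rose and 5 fell (median -0.34). Cish, a STAT5 target that damps signals of cytokine receptors, averaged 18.5 ± 3.13 CPM in libraries labelled KO and 216 ± 33.2 CPM in libraries labelled Con (SD, n = 3 each), with a log2 fold change of -3.55 (adjusted p = 5.31e-08, SE 0.16). Socs2, a feedback inhibitor of growth hormone and cytokine signals, fell, with a log2 fold change of -2.42 (SE 0.15), and Pias3, an inhibitor of STAT3, and Sh2b3, an adaptor that restrains JAK2, rose, at 1.83 (SE 0.12) and 1.11 (SE 0.11). Of 7 JAK and STAT genes 2 rose, 2 fell and 3 did not pass (median -0.02). Jak2, the kinase of the GM-CSF, interleukin-3 and G-CSF receptors, averaged 148 ± 10.3 CPM in libraries labelled KO and 346 ± 5.90 CPM in libraries labelled Con, a log2 fold change of -1.23 (adjusted p = 6.43e-07, SE 0.08). Stat5a was at -1.55 (SE 0.16), its close relative Stat5b at 0.52 (SE 0.10) and Stat3, which acts downstream of interleukin-6 and G-CSF, at 0.68 (SE 0.08), and all 3 passed the test.

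Of 10 genes of the interleukin-1 receptor adaptors 4 rose and 5 fell (median -0.17). The adaptor Myd88 averaged 206 ± 1.10 CPM in libraries labelled KO and 79.9 ± 3.82 CPM in libraries labelled Con (SD, n = 3 each), with a log2 fold change of 1.37 (adjusted p = 2.08e-07, SE 0.08), and the kinase Irak4 and the adaptor Tirap rose by 1.21 (SE 0.10) and 1.40 (SE 0.10). Irak3, an inhibitory member of the kinase family, fell, at 111 ± 9.98 against 259 ± 7.79 CPM (KO against Con), a log2 fold change of -1.22 (adjusted p = 1.04e-06, SE 0.09). Of 7 genes of the inflammasome and of interleukin-1 processing 2 rose and 3 fell (median -0.22). The sensor Nlrc4, at -2.002 (SE 0.16), and the inflammatory caspase Casp4, at -1.26 (SE 0.14), fell, Nek7, a partner of the NLRP3 sensor, rose by 0.69 (SE 0.08), and Txnip, a thioredoxin-binding protein, rose by 0.80 (SE 0.10).

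Of 11 tested genes of other blood-forming and gp130-type cytokines and receptors 8 rose and 2 fell (median 0.85). Lif, a ligand that signals through gp130, fell, at 2.53 ± 1.26 against 61.1 ± 10.04 CPM (KO against Con), a log2 fold change of -4.59 (adjusted p = 4.25e-07, SE 0.27). Its receptor gene Lifr rose by 1.89 (SE 0.12), Osmr, the receptor of the related oncostatin M, by 4.27 (SE 0.36), and Crlf3, a cytokine receptor-like gene, by 0.85 (SE 0.08). Thus Lif and Lifr moved in opposite directions, while Osm, the gene of oncostatin M, rose by 1.64 (SE 0.20), as Osmr did. Of the marker lists not summed so far, all 6 eosinophil genes in the table (of 7) and 7 of 8 erythroid genes rose. So did all 6 genes of stroma and endothelium (of 8) and 3 of the 4 B cell genes (of 8). Their summed levels in libraries labelled KO and Con were 1389 to 1696 and 444 to 508 CPM for eosinophil, 14474 to 20557 and 487 to 524 CPM for erythroid, 239 to 461 and 9.01 to 14.6 CPM for stroma and endothelium, with Sele at 0 under the Con label, and 83.7 to 227 and 31.7 to 50.7 CPM for B cell genes. Of 6 leukocyte and immature myeloid genes in the table (of 8) 3 rose and 2 fell, at 2199 to 2779 and 1474 to 1702 CPM. The leukocyte gene Ptprc and the myeloid gene Itgam averaged 1024 ± 122 against 461 ± 27.6 CPM and 1239 ± 176 against 939 ± 114 CPM (KO against Con), both present in every library.

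**Figure D5:**
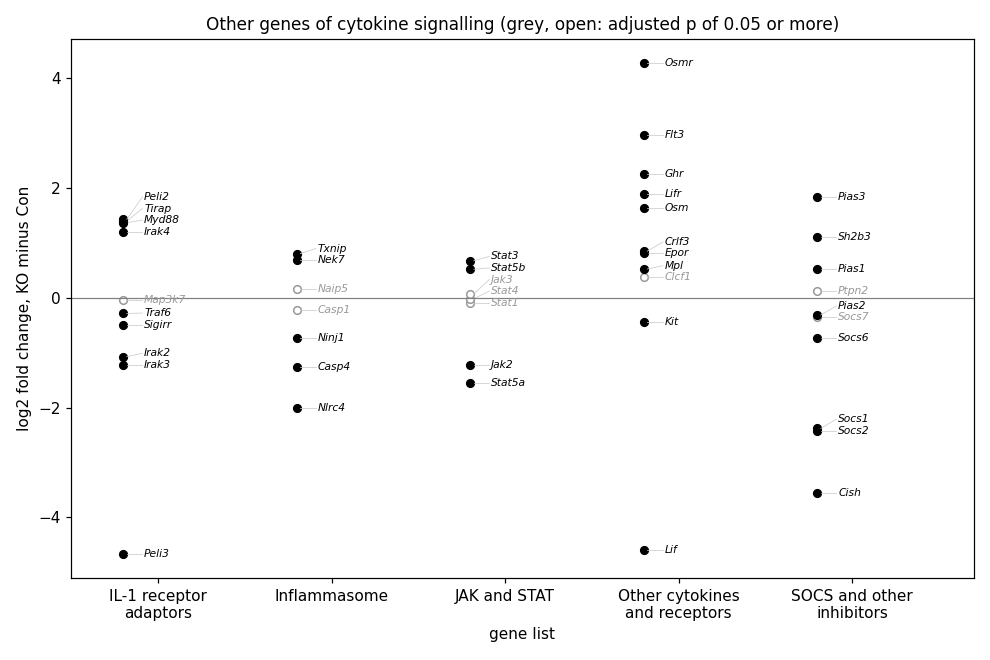
Log2 fold change, KO minus Con, of the 45 tested genes of the 5 lists of cytokine signalling (filled points passed the test). Lif, at -4.59, and Peli3, which rests on 3 counts under the KO label, are lowest, Osmr is highest at 4.27, and Cish, Socs1 and Socs2 lie below -2 in their list.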

How the data were processed

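RNA was extracted with TRIzol and libraries were made with a BGI mRNA kit, per the labels' protocols. The deposited table gives expected counts (estimated counts of reads per gene, before any scaling), 1 column per library, per the file headers and the values themselves. Of its 9295 genes 1449, among them 8 members, have a value that is not whole (tolerance 1e-06), and values were rounded before testing. Neither aligner nor counter is given in the sources used here. A human build, GRCh38, is listed in the submitters' processing notes, while IDs and symbols are of mouse, so no gene coordinates were taken from the submitters. Promoter windows and gene order came from RefSeq, and transcript lengths from GENCODE M21. All 46 members matched the RefSeq table by gene ID, and 0 columns were left unused.

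KO was compared with Con in edgeR 4.0.16 (R 4.3.3; TMM factors, filterByExpr by group, robust quasi-likelihood test, two-sided, no covariate), with Benjamini-Hochberg adjustment over 8358 genes. Adjusted p-values are from this test. The SE of a fold change is its size divided by the root of the F statistic. The script was tested on simulated data with far fewer changed genes than here, which does not test the scaling used. Where a group held no count, the fold is a bound against 3 counts over the group, and with 1 to 3 counts it is a ratio with an exact 95% interval. Both cover counting error only, as do levels near 1 CPM, which rest on about 10 counts per library. Alternatives were DESeq2 1.42.0, limma 3.58.1 (voom), other scalings and filters, libraries left out, Con replicates 2 and 3 summed, and a replicate block. Members, lists and tests were chosen with earlier results of these data known. Every member may be named, values per library are given for those with a mean of at least 20 CPM or a called log2 fold change of at least 3 in size, and the 4 genes of smallest adjusted p are named from each pathway list. Genes named beyond that were chosen after their values were seen.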

Additional observations from a re-analysis of the deposited data

How the results depend on the processing

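Direction and call were the same under every alternative that gave a value for 38 of the 44 tested members. In 657 member comparisons, 633 kept both, 12 lost the call, 10 gained it and 2 turned round. Those 2, both with library size only, were Il3ra (-0.12, adjusted p = 0.298) and Il6st (-0.0392, adjusted p = 0.774), and the cause was not tested beyond the shift of all genes by -0.36. Il3ra gained a call with DESeq2 size factors in edgeR (0.28), the stricter filter (0.26) and without KO replicate 1 (0.28). The other 4 members with a changed call were Il10, Il1f9, Il27 and Il31ra. Il1f9 gained it with DESeq2 (0.45, adjusted p = 0.0258), DESeq2 size factors in edgeR (0.47), the stricter filter of 30 counts in 3 libraries (0.44), and without KO replicate 2 (0.51), KO replicate 3 (0.49) or Con replicate 3 (0.52).

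Leaving out each library gave 3 to 5 ligands higher, 9 lower, 9 to 12 receptors higher and 14 lower, 18 to 19 pathway genes higher and 15 to 18 lower, and 6485 to 6855 genes changed. With Con replicates 2 and 3 summed, 4 ligands rose and 9 fell, and 11 receptors rose and 14 fell, though Il6st lost its call, with 6557 genes changed. Same-numbered libraries did not deviate together (r of -0.00166, 0.0277 and -0.00374 across genes for replicates 1, 2 and 3), and the highest r between any KO and Con number was 0.0456. The numbers thus showed no sign of pairing, but so few libraries cannot exclude a pairing with a small effect. A fit with the replicate block called 6766 genes, with the same number of members and pathway genes in each direction as without it (4 and 9 ligands, 11 and 14 receptors, 19 and 17 pathway genes), and changed no member's call. Depth limits Csf2, Il12b, Il1f6, Il22ra2 and Il23a, with at most 4 counts over 1 group.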
